A study of Homo sapiens with 12 samples.

Results

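The genes described here are 9 cell-surface or secreted molecules through which tumour cells meet immune cells: CD274 and PDCD1LG2, CD276, VTCN1, CD47, NT5E, DPP4, PVR and LGALS9. They were chosen by name, and all 9 of 9 are listed among the 60675 genes of each count table. RNA was sequenced from MDA-MB-468 and HCC1187, established lines of triple-negative breast cancer, a tumour class without oestrogen receptor, progesterone receptor or HER2 amplification. In each line 3 libraries came from cells given an shRNA against SOX9-AS1, a long non-coding RNA gene that overlaps SOX9 on the opposite strand, and 3 from cells given a control shRNA against LacZ, with 48 h of transfection for all. The 4 groups are HCC1187 sh-SOX9-AS1 (S10, S11 and S12), HCC1187 sh-CONTROL (S7, S8 and S9), MDA-MB-468 sh-SOX9-AS1 (S4, S5 and S6) and MDA-MB-468 sh-CONTROL (S1, S2 and S3). No allele or agent beyond the shRNA separates the groups of a line in the labels, and MDA-MB-468 was grown in DMEM while HCC1187 was grown in RPMI medium, both with fetal bovine serum. The labels do not name separate cultures, so p-values measure only the spread between these libraries, which may be technical. The labels give a single shRNA name per target.

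Immune checkpoints are receptor and ligand pairs that damp immune cells. CD274 (PD-L1) and PDCD1LG2 (PD-L2) bind PD-1 on T cells, and interferon gamma induces CD274 through JAK kinases and IRF1 in many tumour cells. CD276 (B7-H3) and VTCN1 (B7-H4) belong to the same B7 family, and VTCN1 is known for its expression in breast and gynaecological epithelium. CD47 binds SIRPA on macrophages and restrains phagocytosis. NT5E (CD73) converts extracellular AMP to adenosine, which acts on lymphocytes through adenosine receptors, and DPP4 (CD26) is a surface peptidase that trims chemokines such as CXCL10 and CXCL12 and binds adenosine deaminase. PVR (CD155) is the ligand of TIGIT and of the activating receptor CD226, and LGALS9 encodes galectin-9, a ligand of TIM-3.

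The genes lie on 8 chromosomes (GRCh38, GENCODE v29). CD274 (ENSG00000120217) is at chr9:5450503-5470566 and PDCD1LG2 (ENSG00000197646) next to it at chr9:5510570-5571254, both on the plus strand. The others are CD276 at chr15:73683966-73714518, NT5E at chr6:85449584-85495791, PVR at chr19:44643798-44663583 and LGALS9 at chr17:27629798-27649560 on the plus strand, and VTCN1 at chr1:117143587-117210960, CD47 at chr3:108043094-108091862 and DPP4 at chr2:161992241-162074542 on the minus strand. A RefSeq promoter (GRCh38.p14, 250 bases before to 50 after the start) was at hand for 8 of the 9, with 9 entries because CD276 has 2, and PDCD1LG2 had none. The promoters of CD274, VTCN1, DPP4 and PVR are shown because the results below turn on these genes: CD274 and PVR in 1 MDA-MB-468 fit, VTCN1 between the lines and DPP4 in HCC1187. Each is read 5′ to 3′ on the strand of its gene, with capitals marking matches, on either strand, to the letters of a known motif.
CD274, chr9:5450292-5450591, plus strand: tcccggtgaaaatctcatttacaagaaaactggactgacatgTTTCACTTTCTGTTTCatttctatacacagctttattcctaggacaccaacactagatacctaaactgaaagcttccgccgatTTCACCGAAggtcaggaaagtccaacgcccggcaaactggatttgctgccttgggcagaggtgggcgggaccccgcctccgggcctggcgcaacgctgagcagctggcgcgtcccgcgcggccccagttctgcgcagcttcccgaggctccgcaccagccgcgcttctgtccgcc
VTCN1, chr1:117210878-117211177, minus strand: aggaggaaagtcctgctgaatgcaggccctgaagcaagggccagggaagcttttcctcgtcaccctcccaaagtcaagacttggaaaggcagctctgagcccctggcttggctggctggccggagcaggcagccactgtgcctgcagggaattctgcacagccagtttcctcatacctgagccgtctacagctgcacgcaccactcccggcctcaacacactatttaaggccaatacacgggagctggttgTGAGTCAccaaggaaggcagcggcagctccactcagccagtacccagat
DPP4, chr2:162074166-162074465, minus strand: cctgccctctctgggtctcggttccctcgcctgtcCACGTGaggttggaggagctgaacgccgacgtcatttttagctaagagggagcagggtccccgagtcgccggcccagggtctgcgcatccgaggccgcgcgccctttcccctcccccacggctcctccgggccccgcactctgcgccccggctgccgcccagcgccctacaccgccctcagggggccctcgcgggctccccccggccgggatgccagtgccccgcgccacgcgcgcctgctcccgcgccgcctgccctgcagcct
PVR, chr19:44643660-44643959, plus strand: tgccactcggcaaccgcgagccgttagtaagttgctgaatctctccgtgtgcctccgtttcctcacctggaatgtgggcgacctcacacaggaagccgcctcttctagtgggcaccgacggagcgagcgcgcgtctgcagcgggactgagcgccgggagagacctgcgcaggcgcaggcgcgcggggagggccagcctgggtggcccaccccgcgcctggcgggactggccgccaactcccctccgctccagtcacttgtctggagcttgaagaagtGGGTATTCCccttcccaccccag

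The CD274 window held 1 match to GAS (TTCNNNGAA), an element of interferon gamma responses, with its first base at −125, and 2 overlapping matches to the core of ISRE (a pair of GAAA set 2 bases apart, on the other strand), an element of interferon responses that IRF factors bind, at −208 and −202. GAS was in 7.66% and the ISRE core in 3.57% of all 34943 promoters of the same length. LGALS9 held 1 ISRE core at −9. VTCN1 held 1 AP-1 match (TGANTCA, 7.72% of promoters) at position 2, DPP4 1 E-box (CACGTG, 7.23%) at −215, and PVR and the first CD276 entry 1 NF-kB match each (GGGNNTTCC, 6.57%). Both SOX words searched, ACAATG (10.8%) and ACAAAG (16.1%), were found in LGALS9 and in no other of these promoters. NT5E, CD47 and the second CD276 entry held none of the 7 words. Such matches are letters in a window and say nothing about binding.

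The libraries held 6026376 to 10160040 counts each, from 1 of 3 sequencing lanes. SOX9-AS1 was lower in the HCC1187 knockdown (log2 fold change −1.08 ± 0.36, SE, adjusted p = 0.0349, 3 libraries per group) on 5 to 24 counts per library, and that call was lost without S7, S9, S11 or S12. It passed the filter on low counts only through the HCC1187 controls, so this fall is given as a description. In MDA-MB-468 its log2 fold change was −0.30 ± 0.20 (adjusted p = 0.417), so the MDA-MB-468 values below set 2 shRNA groups against each other without a passing fall of the target. S4 stands apart from the other MDA-MB-468 knockdown libraries: across genes its log2 CPM correlated at 0.972 to 0.9745 with S5 and S6 and at 0.9884 to 0.9921 with the controls, and it is the 1 library missing from the deposited sample table, which lists 11 of 12. The MDA-MB-468 results of the 9 genes are therefore given with and without S4. With S4 kept, no gene of any other list or marker list described below passed in MDA-MB-468 (edgeR), so calls there rest on 2 knockdown libraries. The libraries labelled HCC1187 were low in epithelial and basal markers beside MDA-MB-468. No reference profile of HCC1187 was compared, so whether the label holds was not tested. The summed level of EPCAM, CDH1, KRT7, KRT8, KRT18 and KRT19 was 315 to 318 CPM in HCC1187 sh-CONTROL and 5780 to 6280 CPM in MDA-MB-468 sh-CONTROL, with KRT7 and KRT19 under 1 CPM in HCC1187. The basal markers KRT5, KRT14, KRT17, EGFR and TP63 summed to 63.1 to 73.3 CPM and 7560 to 7690 CPM in the same groups, and KRT5, KRT14 and TP63 were under 1 CPM in HCC1187. The name HCC1187 is used below for the libraries that carry this label. Lymphoid markers were close to nil: CD3D, CD3E, CD2, MS4A1 and NKG7 had no count in any of the 12 libraries. Fibroblast markers (COL1A1, COL1A2, COL3A1, DCN, LUM and PDGFRB) summed to 66.9 to 75.3 CPM in HCC1187 sh-CONTROL and 11.7 to 14.8 CPM in MDA-MB-468 sh-CONTROL. COL1A2 had no count in either group, and DCN was under 1 CPM in both. Myeloid markers summed to 0.118 to 1.09 CPM and 98.9 to 156 CPM in the same groups, and endothelial markers to 1.09 to 2.12 CPM and 14.3 to 19.9 CPM.

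The control libraries of HCC1187 and MDA-MB-468 carried different sets of these ligands, a comparison that gives the level from which each knockdown started. CPM scale the counts of a library to a common total, and levels of different genes are compared per kb of gene length. In HCC1187 sh-CONTROL the order was CD276 (28.6 ± 3.42 CPM per kb, SD, n = 3), CD47 (8.64 ± 0.694), PVR (8.61 ± 0.676), DPP4 (3.12 ± 0.577), NT5E (0.445 ± 0.162), LGALS9 (0.172 ± 0.0616) and CD274 (0.162 ± 0.0297), with no count for VTCN1 and PDCD1LG2. CD47 and PVR overlapped there, as did LGALS9 and CD274, while every other pair of neighbours was apart in all 3 libraries. In MDA-MB-468 sh-CONTROL the order was VTCN1 (68.2 ± 4.50 CPM per kb), PVR (23.7 ± 0.884), CD47 (14.03 ± 1.18), NT5E (12.9 ± 0.818), CD276 (9.49 ± 0.683), LGALS9 (1.25 ± 0.245), DPP4 (1.19 ± 0.516) and CD274 (0.453 ± 0.103), again with no count for PDCD1LG2. Only CD47 with NT5E and LGALS9 with DPP4 overlapped among these neighbours. CD276 thus led in one line and VTCN1 in the other.

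**Figure D1:**
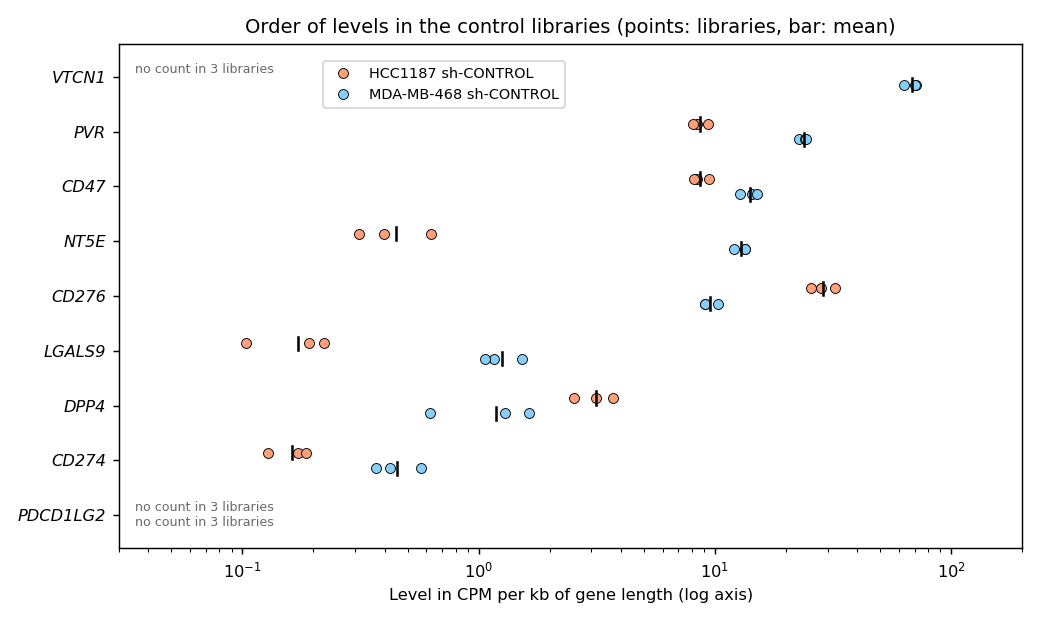
Levels of the 9 genes in the 3 HCC1187 sh-CONTROL (upper row of each gene) and 3 MDA-MB-468 sh-CONTROL libraries, in CPM per kb of gene length on a log axis, with points for libraries and a bar for the mean. VTCN1 averaged 68.2 CPM per kb in MDA-MB-468 and had no count in HCC1187, while CD276 averaged 28.6 in HCC1187 and 9.49 in MDA-MB-468.

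All 8 genes that could be tested differed between the control groups, where 84.1% of all 15592 genes tested passed (edgeR quasi-likelihood test, Benjamini-Hochberg adjusted p under 0.05). CD276 and DPP4 were higher in HCC1187, and CD47, NT5E and PVR lower. CD274, VTCN1 and LGALS9 entered the fit only through their level in MDA-MB-468, so their lower level in HCC1187 follows from the filter on low counts and is given as a description. A share this large for all genes means that passing sets no single ligand apart, and the line, the medium and the count table cannot be told apart. How many of all genes have control libraries that do not overlap between the lines was not counted, so such a separation is a description too. In bulk RNA, fewer cells that express a gene and less RNA per cell cannot be told apart either. Scaling by library totals alone moved the median of all genes by 0.233 on the log2 scale towards HCC1187, and no direction of the 8 changed in the 13 alternatives, which for CD274, VTCN1 and LGALS9 is no sign of stability.

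Among the PD-1 ligands, CD274 had 0.530, 0.710 and 0.763 CPM in S7 to S9 of HCC1187, against 1.74, 1.52 and 2.33 CPM in S1 to S3 of MDA-MB-468. CD274 was 3.25-fold lower in HCC1187 (log2 fold change −1.70 ± 0.36, adjusted p = 2.02e-04, edgeR). These levels rest on 5 to 7 counts per library in HCC1187 and 12 to 20 in MDA-MB-468, and CD274 passed the filter on low counts only through MDA-MB-468. PDCD1LG2 had no count in any of the 6 control libraries, and 3 counts, the limit that a count of 0 allows, correspond to 0.306 to 0.379 CPM per library.

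Of the other B7 ligands, CD276 had 154, 140 and 177 CPM in HCC1187 sh-CONTROL, against 49.7, 49.96 and 56.3 CPM in MDA-MB-468 sh-CONTROL. CD276 was 2.57-fold higher in HCC1187 (1.36 ± 0.10, adjusted p = 1.89e-11). VTCN1 had no count in the 3 HCC1187 controls, nor in the 3 knockdown libraries, against 215, 214 and 191 CPM in the MDA-MB-468 controls. Set against 3 counts per library, VTCN1 was at least 582-fold lower in HCC1187, and it entered the fit only through MDA-MB-468.

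CD47, the anti-phagocytic ligand, had 69.0, 77.6 and 66.8 CPM in HCC1187 sh-CONTROL, against 118, 124 and 105 CPM in MDA-MB-468 sh-CONTROL (−0.93 ± 0.08, adjusted p = 1.25e-09). NT5E, which makes adenosine, had 1.80, 2.84 and 1.42 CPM in HCC1187 sh-CONTROL, against 60.6, 61.0 and 54.4 CPM in MDA-MB-468 sh-CONTROL. It was the widest fold of the genes with counts in both lines, 34.3-fold lower in HCC1187 (−5.10 ± 0.16, adjusted p = 1.71e-17). DPP4 ran the other way, with 11.9, 17.3 and 14.7 CPM in HCC1187 sh-CONTROL, against 7.66, 6.07 and 2.92 CPM in MDA-MB-468 sh-CONTROL, 2.21-fold higher in HCC1187 (1.14 ± 0.23, adjusted p = 9.17e-05). NT5E was thus lower and DPP4 higher in HCC1187.

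PVR had 51.4, 49.1 and 57.1 CPM in HCC1187 sh-CONTROL, against 139, 147 and 148 CPM in MDA-MB-468 sh-CONTROL, 3.23-fold lower in HCC1187 (−1.69 ± 0.08, adjusted p = 4.71e-14). LGALS9 had 1.27, 0.591 and 1.09 CPM in HCC1187 sh-CONTROL, against 6.64, 8.73 and 6.06 CPM in MDA-MB-468 sh-CONTROL, 8.27-fold lower in HCC1187 (−3.05 ± 0.28, adjusted p = 1.71e-09). LGALS9 reached the 1.13 CPM that the filter asks for in 1 of 3 HCC1187 controls and in all 3 MDA-MB-468 controls. Both genes were lower in every HCC1187 control than in any MDA-MB-468 control, a separation that was not set against all genes and that for LGALS9 follows from the filter. The LGALS9 count could be split with its near-identical relatives LGALS9B and LGALS9C, which had no count in HCC1187 and 0 to 3 counts per library in MDA-MB-468. PVR shares its locus with CEACAM19 on the same strand (50 to 394 counts per library) and with the antisense gene AC243964.2 (3 to 26 counts), and DPP4 with the antisense gene AC008063.1 (0 to 3 counts). Whether the counting used strand is unknown here, so reads of a gene and its antisense partner may not be told apart.

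**Figure D2:**
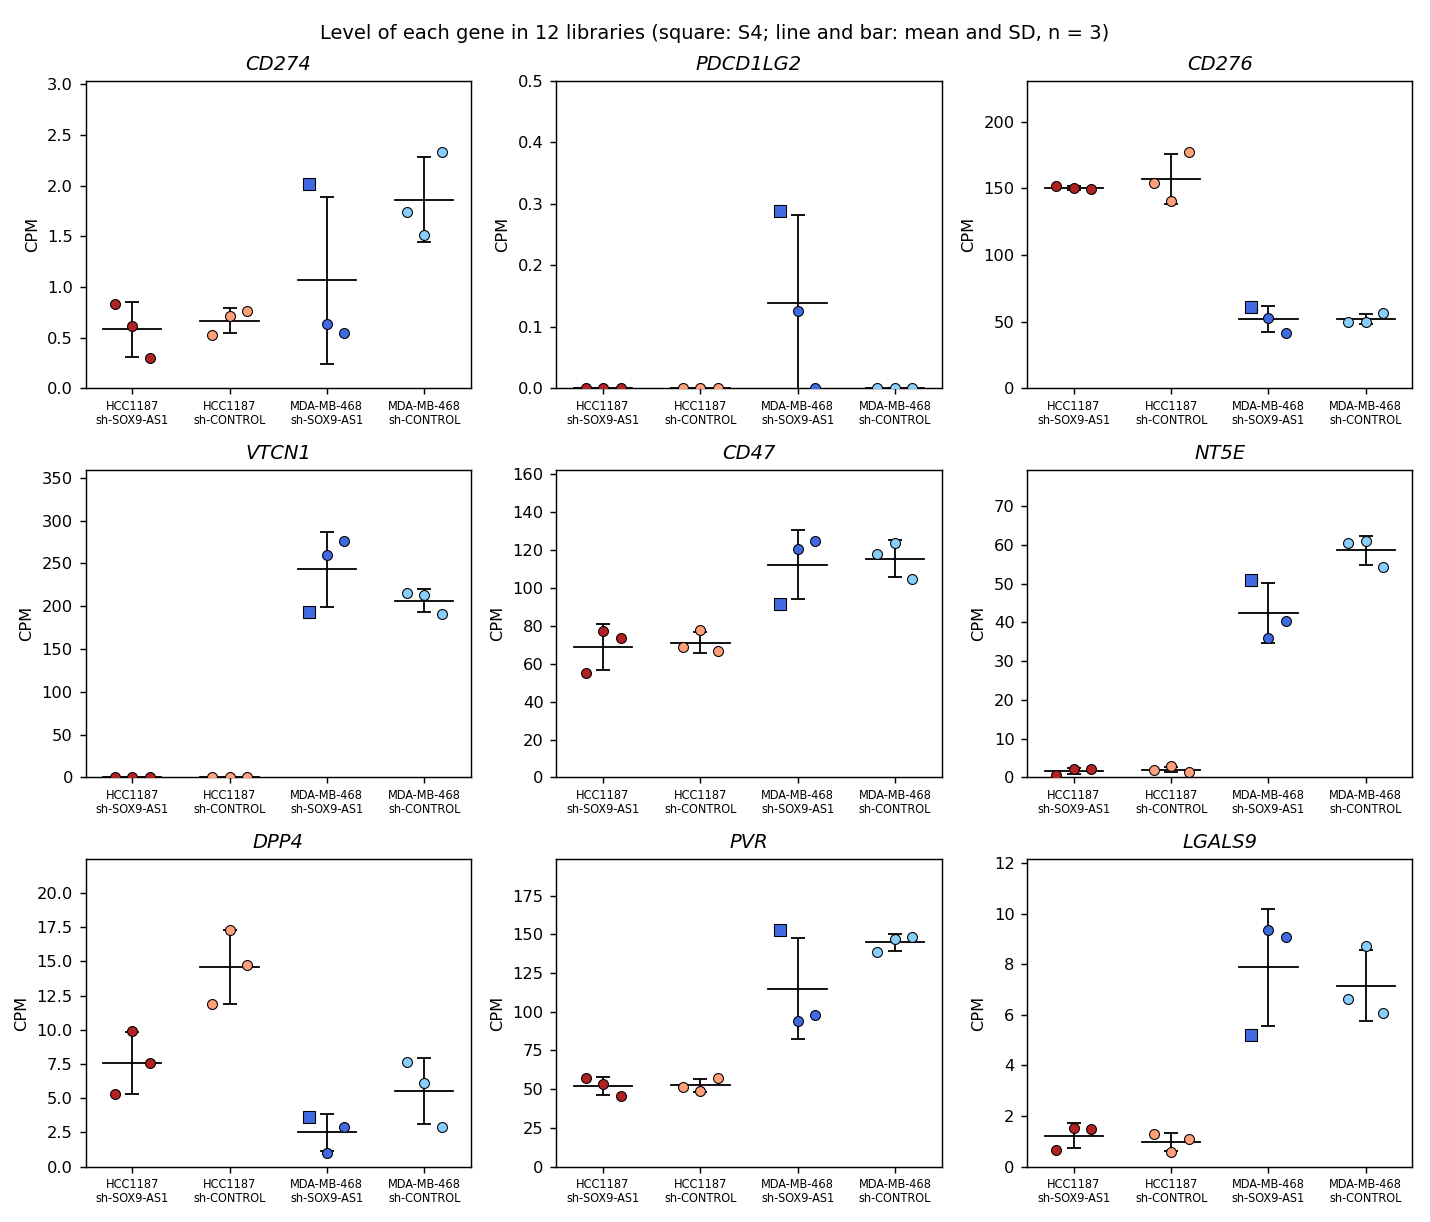
CPM of each gene in the 12 libraries on linear axes that start at 0, one panel per gene, with the groups in the order HCC1187 sh-SOX9-AS1, HCC1187 sh-CONTROL, MDA-MB-468 sh-SOX9-AS1 and MDA-MB-468 sh-CONTROL; points are libraries, squares S4, and lines with bars the mean and SD (n = 3). DPP4 lies lower in all HCC1187 sh-SOX9-AS1 libraries (5.31 to 9.87 CPM) than in the HCC1187 controls (11.9 to 17.3 CPM), and S4 lies beside the controls for CD274 and PVR.

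In HCC1187, the knockdown was followed by a lower level of 1 of the 9 genes, DPP4. DPP4 had 5.31, 9.87 and 7.58 CPM in S10 to S12, against 11.9, 17.3 and 14.7 CPM in S7 to S9. All knockdown libraries lay below all controls, and DPP4 fell 1.99-fold (log2 fold change −0.99 ± 0.19, adjusted p = 7.22e-04, edgeR, 3 libraries per group, 32 to 146 counts per library). DPP4 was 1 of 6 genes tested, and 13.1% of all 14970 genes tested were called lower, so the share of these ligands that fell is near the background. The groups did not overlap for DPP4 alone among the 6, a pattern seen in 39.4% of all genes tested. DPP4 passed whichever library was left out, and did not pass with all 12 libraries fitted together (adjusted p = 0.069). Of the 6 epithelial markers, whose summed level was 262 to 288 CPM in sh-SOX9-AS1 and 315 to 318 CPM in sh-CONTROL, 4 were tested, and KRT18 (−0.42 ± 0.09) and KRT8 (−0.24 ± 0.08) fell. EPCAM (0.34 ± 0.21, adjusted p = 0.265) and CDH1 (0.09 ± 0.16, adjusted p = 0.711) did not pass, KRT7 and KRT19 were too low to be tested, and the median of the 4 was −0.072. Their part in the DPP4 result was not tested.

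The other 5 genes tested in HCC1187 did not pass. CD276 had 152, 150.0 and 149 CPM in sh-SOX9-AS1, against 154, 140 and 177 CPM in sh-CONTROL, a log2 fold change of −0.12 with a 95% interval of −0.30 to 0.06. CD47 had 54.9, 77.4 and 73.7 CPM in sh-SOX9-AS1, against 69.0, 77.6 and 66.8 CPM in sh-CONTROL, and its interval was −0.32 to 0.13. PVR had 56.9, 53.5 and 45.9 CPM in sh-SOX9-AS1, against 51.4, 49.1 and 57.1 CPM in sh-CONTROL, and its interval was −0.28 to 0.13. The groups overlapped for all 3 of these well-expressed ligands.

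NT5E and LGALS9 were close to the detection limit in HCC1187 and their intervals are wide. NT5E had 0.664, 2.16 and 2.17 CPM in sh-SOX9-AS1 (4, 14 and 22 counts), against 1.80, 2.84 and 1.42 CPM in sh-CONTROL, an interval of −0.97 to 0.47. LGALS9 had 0.664, 1.54 and 1.48 CPM in sh-SOX9-AS1, against 1.27, 0.591 and 1.09 CPM in sh-CONTROL, an interval of −0.52 to 1.10. CD274 had 5, 4 and 3 counts in sh-SOX9-AS1, against 5, 6 and 7 counts in sh-CONTROL, and was too low to be tested, like VTCN1 and PDCD1LG2, which had none. No difference of these 3 was detectable at this depth.

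**Figure D3:**
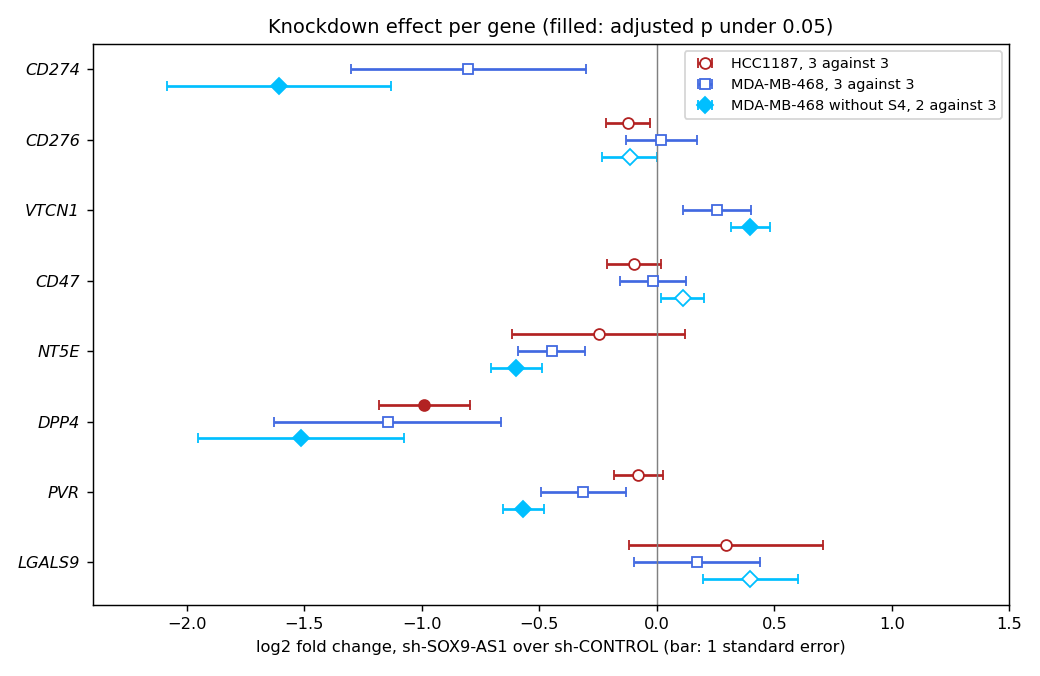
Log2 fold change of sh-SOX9-AS1 over sh-CONTROL per gene in HCC1187 (circles), MDA-MB-468 with 3 against 3 libraries (squares) and MDA-MB-468 without S4 (diamonds), with bars of 1 standard error and filled symbols for an adjusted p under 0.05. DPP4 is filled in HCC1187 (−0.99), no gene is filled in MDA-MB-468 with all libraries, and 5 are filled without S4. Of these 5, CD274 and DPP4 passed the filter on low counts only through the controls. PDCD1LG2 was not tested, nor were CD274 and VTCN1 in HCC1187.

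In MDA-MB-468, none of the 8 genes tested passed with all 6 libraries (edgeR), where 0.00733% of all 13638 genes tested passed, a single gene. By edgeR's unadjusted p under 0.05 there were 2, NT5E and DPP4, against 18.7% of all genes, and DESeq2 and limma-voom called 0 of the 8. Without S4, which leaves 2 knockdown libraries against 3 controls, NT5E and PVR fell and VTCN1 rose. CD274 and DPP4 also had an adjusted p under 0.05, which makes 5 of the 8. CD274 (5 and 4 counts in S5 and S6) and DPP4 (8 and 21 counts) passed the filter on low counts only through the controls. Their falls in that fit are therefore given as a description. That fit called 20.7% of all 13947 genes lower and 20.0% higher. The median log2 fold change of the 8 was −0.34 in that fit, against −0.0014 for all genes. Both the count of 5 and this median include CD274 and DPP4, so they depend in part on the filter.

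The values per library show where S4 enters. CD274 had 2.02, 0.631 and 0.551 CPM in S4, S5 and S6, against 1.74, 1.52 and 2.33 CPM in S1 to S3. S4 lay within the controls, and S5 and S6 lay below all of them at 33.9% and 29.6% of the control mean. The log2 fold change was −0.80 ± 0.50 with S4 (adjusted p = 0.382) and −1.61 ± 0.48 without it (adjusted p = 0.0139), on 14, 5 and 4 counts in the knockdown libraries. Without S4, DESeq2 did not call CD274 (adjusted p = 0.0772).

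PVR had 153, 94.0 and 98.01 CPM in S4, S5 and S6, against 139, 147 and 148 CPM in S1 to S3. S4 lay above every control, and S5 and S6 were at 65.0% and 67.7% of the control mean. The log2 fold change was −0.31 ± 0.18 with S4 (adjusted p = 0.352) and −0.57 ± 0.09 without it (adjusted p = 1.11e-04). PVR is carried by 712 to 1356 counts per library, far more than CD274.

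NT5E was the only gene of the 8 whose 3 knockdown libraries all lay below the 3 controls, against 21.9% of all genes tested whose groups did not overlap. It had 50.9, 35.98 and 40.3 CPM in S4, S5 and S6, against 60.6, 61.0 and 54.4 CPM in S1 to S3. Its log2 fold change was −0.45 ± 0.14 with S4 (adjusted p = 0.207, 95% interval −0.73 to −0.17 without adjustment) and −0.60 ± 0.11 without it (adjusted p = 4.80e-04).

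DPP4 had 3.60, 1.01 and 2.89 CPM in S4, S5 and S6, against 7.66, 6.07 and 2.92 CPM in S1 to S3. S4 lay within the range of the controls, S6 just below the lowest control and S5 well below it, on 8 to 75 counts per library. The log2 fold change was −1.15 ± 0.48 with S4 (adjusted p = 0.254) and −1.51 ± 0.44 without it (adjusted p = 0.0121). With S4 kept and no filter on low counts, DPP4 passed (adjusted p = 0.0156).

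VTCN1, by far the most abundant of these ligands in MDA-MB-468, had 193, 259.5 and 276 CPM in S4, S5 and S6, against 215, 214 and 191 CPM in S1 to S3. S4 lay within the controls, and S5 and S6 above all of them. The log2 fold change was 0.26 ± 0.14 with S4 (adjusted p = 0.344) and 0.40 ± 0.08 without it (adjusted p = 0.0015).

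The last 3 genes did not pass in MDA-MB-468 with or without S4. CD276 had 61.4, 53.0 and 41.4 CPM in S4 to S6, against 49.7, 49.96 and 56.3 CPM in S1 to S3, with log2 fold changes of 0.02 ± 0.15 with S4 and −0.11 ± 0.12 without it. CD47 had 91.5, 121 and 125 CPM in S4 to S6, against 118, 124 and 105 CPM in S1 to S3, with −0.02 ± 0.14 and 0.11 ± 0.09. LGALS9 had 5.19, 9.34 and 9.09 CPM in S4 to S6, against 6.64, 8.73 and 6.06 CPM in S1 to S3, with 0.17 ± 0.27 and 0.40 ± 0.20 (adjusted p = 0.129 without S4). S4 was the lowest of the 6 libraries for CD47 and LGALS9 and the highest for CD276. PDCD1LG2 had 2, 1 and 0 counts in S4 to S6, against none in S1 to S3, and was not tested.

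**Figure D4:**
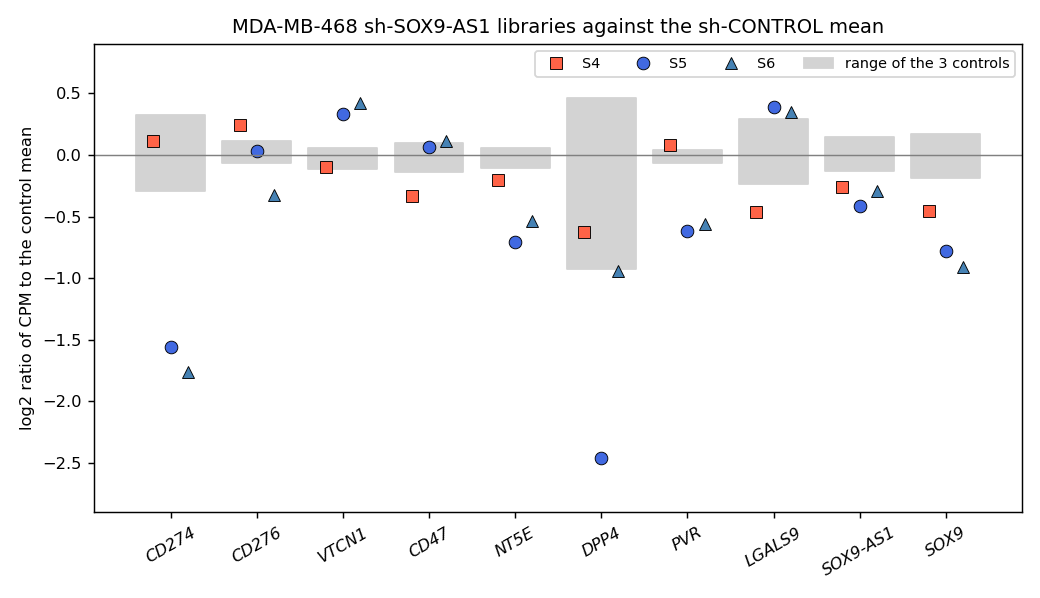
Log2 ratio of the CPM of S4, S5 and S6 to the mean of the 3 MDA-MB-468 sh-CONTROL libraries for 8 genes, SOX9-AS1 and SOX9, with grey boxes for the range of the controls. S5 and S6 lie together below the controls for CD274 (−1.56 and −1.76), NT5E and PVR and above them for VTCN1, while S4 lies within or near the controls; for SOX9 all 3 lie below.

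Beside these MDA-MB-468 values, basal markers differed in the same libraries. The summed basal level was 7760 CPM in S4, 5730 CPM in S5 and 5650 CPM in S6, against 7560 to 7690 CPM in sh-CONTROL, so S4 lay just above the controls and S5 and S6 below them. Without S4, 3 of the 5 basal markers fell: KRT17 (−2.46 ± 0.10), KRT14 (−2.54 ± 0.36) and KRT5 (−1.02 ± 0.08). With S4 none of them passed, at −1.11 ± 0.61 for KRT17 (adjusted p = 0.335), −1.44 ± 0.57 for KRT14 (adjusted p = 0.238) and −0.62 ± 0.24 for KRT5 (adjusted p = 0.234). Of the 6 epithelial markers, 3 fell without S4: EPCAM (−0.28 ± 0.08), KRT18 (−0.27 ± 0.08) and KRT7 (−0.24 ± 0.08). With S4 these stood at −0.26 ± 0.10, −0.10 ± 0.14 and −0.10 ± 0.12, and their summed level overlapped between the groups in either case.

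The myeloid markers summed to 114 to 166 CPM in sh-SOX9-AS1 and 98.9 to 156 CPM in sh-CONTROL, most of it from CD14, with CD68 and LYZ at 0 in both. Without S4, ITGAM fell (−1.19 ± 0.29, adjusted p = 0.00415), while CSF1R (−0.40 ± 0.16, adjusted p = 0.0584) and CD14 (0.24 ± 0.17, adjusted p = 0.293) did not pass. Of the 2 endothelial markers tested, KDR fell without S4 (−0.90 ± 0.25), and the 1 fibroblast marker tested, COL1A1, rose (0.47 ± 0.17). With S4 the log2 fold changes were −0.98 ± 0.28 for ITGAM, −0.55 ± 0.31 for KDR and 0.37 ± 0.19 for COL1A1, and none passed. Lymphoid markers summed to at most 0.138 CPM in sh-SOX9-AS1 and 0.379 CPM in sh-CONTROL. The part of these markers in the results of the ligands was not tested.

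The difference between the knockdown effects, HCC1187 minus MDA-MB-468, was tested for 7 genes in 1 fit over the 12 libraries. None passed (edgeR), against 3.75% of all 16328 genes tested, and none had an unadjusted p under 0.05; DESeq2 and limma-voom also called 0. For DPP4 the difference was 0.18 ± 0.52 on the log2 scale, with a 95% interval of −0.84 to 1.20, a range that holds differences as large as the fall of DPP4 in HCC1187 itself. For CD276 and CD47 the intervals were −0.49 to 0.23 and −0.47 to 0.32. Without S4, PVR passed (0.49 ± 0.14, adjusted p = 0.00955, background 25.6%): its log2 fold change was −0.08 ± 0.11 in HCC1187 and −0.57 ± 0.09 in MDA-MB-468. CD274 had a difference of 1.25 ± 0.75 without S4 that did not pass (adjusted p = 0.242).

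Genes that act with these ligands were followed in lists chosen by function. Of 20 genes of interferon signalling and PD-L1 control, 19 were tested in HCC1187, where 2 rose and 4 fell, with a median log2 fold change of −0.12 against 0.014 for all genes. Of all genes tested in HCC1187, 9.78% were called higher and 13.1% lower, and the same background holds for the HCC1187 lists that follow. CMTM6, which protects PD-L1 protein from degradation, had 92.2 ± 8.68 CPM in HCC1187 sh-SOX9-AS1 and 132 ± 9.27 CPM in sh-CONTROL (−0.57 ± 0.09, adjusted p = 1.13e-04, edgeR). Its relative CMTM4 fell as well (−0.49 ± 0.09, adjusted p = 3.86e-04), and NLRC5, the activator of MHC class I genes, rose (0.67 ± 0.17, adjusted p = 0.00622). IFNAR1, a chain of the type I interferon receptor, fell (−0.41 ± 0.12, adjusted p = 0.0134), a call lost without S8 (adjusted p = 0.124). All 4 of these genes keep their direction in every alternative run.

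In MDA-MB-468 the same list had none of 20 passing with S4, and 7 rises and 3 falls without it. The background of that fit, for this list and those that follow, was 20.0% of all genes higher and 20.7% lower. IRF1, the interferon-induced factor that acts on the CD274 promoter, fell in that fit (−0.73 ± 0.10, adjusted p = 4.36e-05), while STAT2 (0.65 ± 0.11), TYK2 (0.68 ± 0.08) and SOCS3 (1.03 ± 0.18), a feedback inhibitor of JAK, rose. With S4 the values were −0.38 ± 0.23 for IRF1, 0.44 ± 0.20 for STAT2, 0.49 ± 0.18 for TYK2 and 0.82 ± 0.25 for SOCS3. IRF1 had 87.3, 49.99 and 45.0 CPM in S4, S5 and S6, against 77.7, 77.7 and 84.4 CPM in S1 to S3. Like CD274, it was lower in S5 and S6 than in every control and not in S4, the library that lay nearer to the controls across genes. A part of IRF1 in the CD274 values was not tested.

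Other ligands of immune receptors were 27 genes, of which 15 were tested in HCC1187, with 1 rise (background 9.78%) and 5 falls (background 13.1%) and a median log2 fold change of −0.053. NECTIN3, a nectin that binds PVR, had 20.2 ± 1.19 CPM in HCC1187 sh-SOX9-AS1 and 34.0 ± 4.10 CPM in sh-CONTROL (−0.80 ± 0.12, adjusted p = 5.07e-05) and no count in MDA-MB-468. CD24, a ligand of SIGLEC10 on macrophages, fell (−0.66 ± 0.11, adjusted p = 1.20e-04), and so did LGALS3, which encodes galectin-3 (−0.54 ± 0.11, adjusted p = 8.06e-04). The rise was BTN3A2, a butyrophilin (0.39 ± 0.10, adjusted p = 0.00651), which did not pass without S8. In MDA-MB-468, 0 of 18 passed with S4, and without it 9 rose (background 20.0%) and 5 fell (background 20.7%). CD24 rose there (0.47 ± 0.10) and BTN3A3, of the butyrophilins that gamma delta T cells read, rose (1.106 ± 0.153), while NECTIN1 (−0.56 ± 0.09) and NECTIN4 (−0.51 ± 0.09) fell. With S4 these stood at 0.24 ± 0.22 for CD24, 0.90 ± 0.23 for BTN3A3, −0.35 ± 0.17 for NECTIN1 and −0.27 ± 0.18 for NECTIN4. For CD24 the difference between the lines was −0.90 ± 0.26 with S4 (adjusted p = 0.0721) and −1.12 ± 0.15 without it (adjusted p = 4.51e-06).

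**Figure D5:**
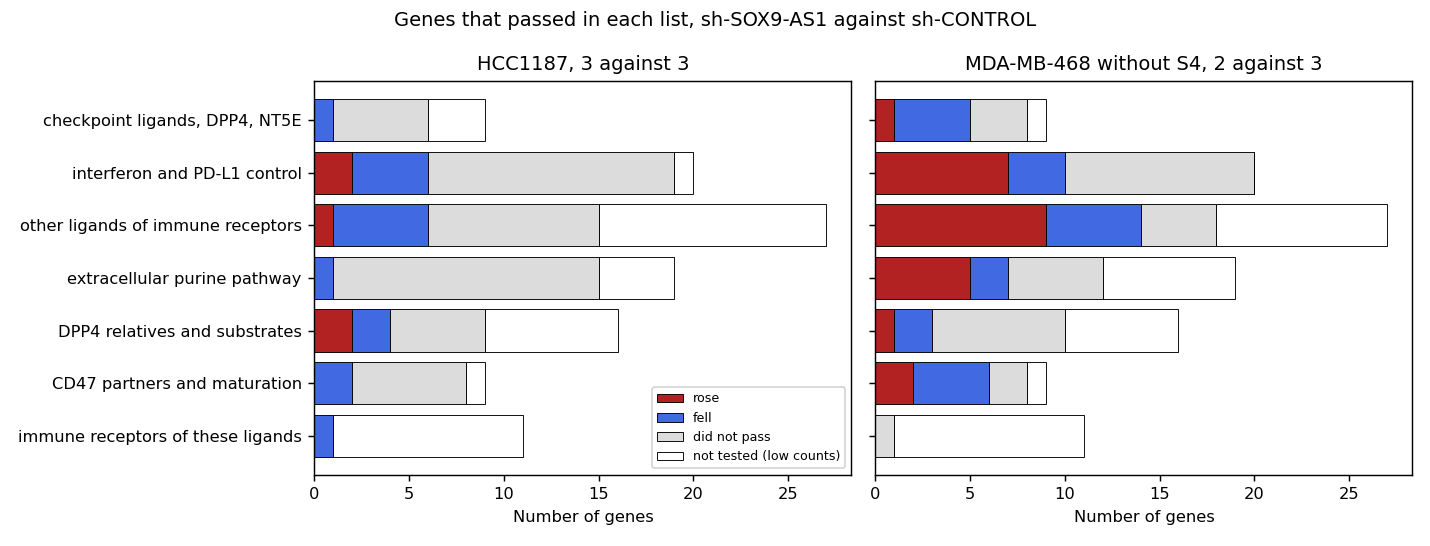
Number of genes per list that rose, fell, did not pass or were not tested after sh-SOX9-AS1, in HCC1187 (left) and in MDA-MB-468 without S4 (right). The interferon list has 2 rises and 4 falls of 20 in HCC1187 and 7 rises and 3 falls in MDA-MB-468 without S4, and 10 of the 11 immune receptor genes were too low to test in both.

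The extracellular purine pathway around NT5E holds the enzymes, transporters and receptors that handle ATP and adenosine. In HCC1187, 1 of its 15 tested genes passed: PNP, which splits inosine, fell (−0.26 ± 0.09, adjusted p = 0.0289), a call lost without S7, S9 or S12, where 13.1% of all genes were called lower. In MDA-MB-468 none of 12 passed with S4, and without it 5 rose (background 20.0%) and 2 fell (background 20.7%). The nucleoside transporters went opposite ways there, SLC29A2 up (1.05 ± 0.10, adjusted p = 1.40e-06) and SLC29A1 down (−0.79 ± 0.14, adjusted p = 3.76e-04). ADK, which phosphorylates adenosine, rose (0.51 ± 0.09), and PANX1, a channel that releases ATP, fell (−0.63 ± 0.12). With S4 the values were 0.84 ± 0.21 for SLC29A2, −0.48 ± 0.23 for SLC29A1, 0.33 ± 0.17 for ADK and −0.39 ± 0.19 for PANX1. Between the control groups ENPP1, which makes AMP from ATP, was higher in HCC1187 (93.6 ± 5.48 CPM) than in MDA-MB-468 (1.41 ± 0.676 CPM), with a log2 fold change of 5.77 ± 0.17, the reverse of NT5E.

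Among relatives and substrates of DPP4, 9 of 16 genes were tested in HCC1187, 2 rising (background 9.78%) and 2 falling (background 13.1%). CXCL12, a chemokine that DPP4 inactivates, had 9.08 ± 2.24 CPM in HCC1187 sh-SOX9-AS1 and 16.2 ± 1.80 CPM in sh-CONTROL (−0.85 ± 0.17, adjusted p = 7.45e-04), and no count in MDA-MB-468. DPP4 and its substrate were thus both lower in the HCC1187 knockdown. DPP7, a lysosomal dipeptidyl peptidase, rose (0.84 ± 0.21, adjusted p = 0.00575), and DPP3 rose as well (0.40 ± 0.11, adjusted p = 0.0144), a call lost without S7, S8 or S10. CAV1, which binds DPP4 on antigen-presenting cells, had −0.37 ± 0.12 (adjusted p = 0.0307) and kept its call in only 5 of 13 alternatives, losing it without S7, S8, S9, S10 or S12 among others. In MDA-MB-468, 0 of 10 passed with S4, and without it 1 rose (background 20.0%) and 2 fell (background 20.7%). CAV1 (−1.29 ± 0.10, adjusted p = 2.39e-07) and DPP9, a cytosolic relative (−0.62 ± 0.10), fell, and PRCP rose (0.31 ± 0.12, adjusted p = 0.0479). With S4 these stood at −0.83 ± 0.28, −0.28 ± 0.22 and 0.33 ± 0.13.

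CD47 itself did not pass in either line, but some of its partners did. Of 9 genes, 8 were tested in HCC1187 and 2 fell (background 13.1%): SIRPA, the macrophage receptor of CD47 (−0.60 ± 0.14, adjusted p = 0.0044), which did not pass without S12 (0.0533), and THBS1, the secreted thrombospondin that also binds CD47 (−1.16 ± 0.30, adjusted p = 0.00784). THBS1 had 1.43 ± 0.562 CPM in HCC1187 sh-SOX9-AS1 and 3.30 ± 0.325 CPM in sh-CONTROL, and did not pass with all 12 libraries fitted together (adjusted p = 0.61). In HCC1187, THBS1 passed the filter on low counts only through the controls, so its fall there is given as a description. In MDA-MB-468, 0 of 8 passed with S4, and without it 2 rose (background 20.0%) and 4 fell (background 20.7%). THBS1 fell by 3.99 ± 0.23 on the log2 scale there (adjusted p = 4.24e-09), and QPCTL, the enzyme that modifies the end of CD47 so that SIRPA can bind, rose (0.96 ± 0.15, adjusted p = 1.50e-04). With S4 kept, THBS1 had −2.10 ± 0.77 (adjusted p = 0.219) and QPCTL 0.76 ± 0.22 (adjusted p = 0.205).

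Of the 11 receptors that read these ligands on immune cells, 10 were too low to be tested in either line, and SIRPA was the exception. The genes whose levels followed each ligand most closely were found over the 12 libraries, S4 included, after subtracting the control mean of the line, among about 11040 protein-coding genes. PVR was closest to TNFRSF12A (Pearson r = 0.978) and TNPO2 (0.973), and CD274 to TNPO2 (0.96). DPP4 was closest to ZNF800 (0.971), CD47 to DNM1L (0.947), CD276 to KDM6B (0.931), NT5E to CARNMT1 (0.913) and LGALS9 to NRM (0.86). VTCN1 had no count in HCC1187 and is left out here. These are the highest of many coefficients over the same libraries and describe likeness of pattern alone.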

How the data were processed

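The gene counts were deposited by the authors as whole numbers per lane, library and gene; the submitters' processing notes name HISAT2 2.1.0, featureCounts 2.0.0, Trimmomatic 0.39, SAMtools, FastQC 0.11.9 and GRCh38. The strand setting is not given here. A group has 9 count columns for 3 samples, so lane 1 alone was used where sums over 3 lanes had been planned, and 24 of 36 count columns were not used. Columns carry a group and a library number but no replicate number; those of the knockdown also carry the word BLANCO, whose meaning is unknown. Gene lengths are those of the deposited tables.

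Each comparison was fitted by edgeR 4.0.16 with its quasi-likelihood test (R 4.3.3; filterByExpr with minimum count 10 and total 15, TMM scaling, Benjamini-Hochberg over all genes tested, passing under 0.05). Standard errors came from the log2 fold change and F, and 95% intervals assume a normal error. The fit was also run on simulated counts with the same spread for all genes and no library that stands apart, so that run cannot speak to S4. CPM use lane 1 totals. The 9 genes, the 6 gene lists and 6 marker lists were chosen with earlier results of these data known. Named were the 9 genes, SOX9, SOX9-AS1, up to 4 genes per list and comparison with the smallest p, and the 2 nearest genes by r; not all are printed. Alternatives were DESeq2 1.42.0, limma-voom (limma 3.58.1), other scalings and filters, all 12 libraries together and each library left out; combinations of these with S4 left out were chosen after seeing the data.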

Additional observations from a re-analysis of the deposited data

Results flagged for a closer look

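The knockdown effect differed between the lines, by the interaction test over the 12 libraries, for 3 genes that act beside these ligands. These were 2 of 19 genes tested among the other ligands of immune receptors and 1 of 9 in the CD47 list. In the interferon, purine and DPP4 lists 0 of 20, 0 of 15 and 0 of 12 passed. Of all 16328 genes tested, 3.75% passed, so calls this few do not set the lists apart. TNFSF9, the ligand of the T cell receptor 4-1BB, had a difference of −1.10 ± 0.29 on the log2 scale (HCC1187 minus MDA-MB-468, adjusted p = 0.0485, edgeR), with 8.67 ± 0.963 CPM in HCC1187 sh-SOX9-AS1, 12.5 ± 0.490 CPM in HCC1187 sh-CONTROL, 12.5 ± 2.92 CPM in MDA-MB-468 sh-SOX9-AS1 and 8.84 ± 2.095 CPM in MDA-MB-468 sh-CONTROL. LGALS3, galectin-3, had a difference of −0.541 ± 0.136 (adjusted p = 0.0426), and QPCTL, which modifies CD47, of −1.08 ± 0.278 (adjusted p = 0.0447). All 3 lie just under the threshold. Of the 12 fits that leave out 1 library each, 11 lost the call for TNFSF9, 11 for LGALS3 and 10 for QPCTL; all 3 passed without S4, and QPCTL also without S3. Without S4, PVR had a difference of 0.49 ± 0.14 (adjusted p = 0.00955) that did not pass with S4 (0.25 ± 0.22, adjusted p = 0.548).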

How the results depend on the processing

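Counts of genes passing moved with the fit. In HCC1187, 3418 genes passed, 1499 with all 12 libraries fitted together and 2213 to 3410 when each library was left out, lowest without S8; of the 9 ligands the count was 1, and 0 with all 12 together. In MDA-MB-468, 1 gene passed, 289 with DESeq2, 0 with limma-voom, 1441 with no filter on low counts, 887 with all 12 libraries together and 0 to 5676 when each library was left out, highest without S4; of the ligands 0 passed, 1 with no filter (DPP4), and 0 to 5 when each library was left out. For the difference between the lines 613 genes passed, 1142 with DESeq2, 1415 with no filter and 129 to 4300 when each library was left out, highest without S4; of the ligands 0 passed, and 0 to 1 when each library was left out. Without S4, the 5 further fits kept the ligand count at 5 in MDA-MB-468, except for 4 with DESeq2, and at 1 for the difference. The count of 5 includes CD274 and DPP4, which passed the filter on low counts, where it was applied, only through the controls. In HCC1187 42.8% of the calls were rises, and 57.7% with library totals as the only scaling; for the difference these shares were 33.0% and 46.9%.

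With all 12 libraries together IFNAR1, BTN3A2, PNP, SIRPA, THBS1 and CAV1 did not pass in HCC1187, nor did PNP and CAV1 with library totals or CAV1 with DESeq2; PRCP without S4 did not pass with DESeq2, library totals or no filter.

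Log2 fold changes near 0 changed sign. CD276 in MDA-MB-468 was −0.0021 with library totals alone, and for the difference without S4 it was 0.0064 with limma-voom and 0.073 with library totals. Leaving out each library gave −0.21 to 0.036 for CD47, −0.53 to 0.062 for NT5E and −0.14 to 0.012 for PVR in HCC1187, and −0.11 to 0.15 for CD276 and −0.11 to 0.11 for CD47 in MDA-MB-468. For the difference it gave −0.21 to 0.068 for CD47, −0.075 to 0.52 for NT5E, −0.23 to 0.53 for DPP4 and −0.13 to 0.38 for LGALS9. The cause was not tested. No paired analysis was possible because the count columns carry no replicate number. Sums over lanes were not run. Depth limits CD274, NT5E and LGALS9 in HCC1187, and CD274 and DPP4 in MDA-MB-468.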
